A study of Rattus norvegicus with 9 samples.

Results

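The nuclear-encoded subunits of the respiratory chain were described in rat gastrocnemius, a large muscle of the calf that the sciatic nerve serves. Members were the genes whose RefSeq symbol, matched by gene ID, began with Ndufa, Ndufb, Ndufc, Ndufs, Ndufv, Sdh, Uqcr, Atp5 or Cox4 to Cox8, leaving out the assembly factors Ndufaf and Sdhaf. A member also needed an expected count (the number of reads estimated to come from the gene) of at least 10 in at least 3 of the 9 libraries. Of 13752 gene IDs listed in any library, 81 met the name rule and 80 were members. The exception was Cox6b2, a testis form of a cytochrome c oxidase subunit, whose highest expected count was 7. Complex I had 35 members, complex II 4, complex III 8, complex IV 16 and complex V 17. Ndufa4 and its paralog Ndufa4l2 were counted with complex IV, of which Ndufa4 is now known to be a subunit, and Atp5if1, the inhibitor of ATP synthase, with complex V. Ndufs6-ps1 (gene ID 29478) was a member by its symbol, although RefSeq now names it a pseudogene. Cyc1 (cytochrome c1), a subunit of complex III, does not meet the name rule and is given below with other pathway genes. Cox7a1, Ndufa3, Ndufb1, Ndufc1, Ndufs6 and the subunits encoded in mitochondrial DNA were not analysed here.

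All animals were male rats aged 8 weeks, and each of 3 groups had 3 libraries. SHAM had a sham operation, DN an injury of the sciatic nerve, and DN-SM the same injury followed by 4 weeks of daily surface stimulation of the muscle, started at once after surgery, at 25 V, 1 mA and 2 Hz with a pulse width of 300 ms. SHAM and DN animals were also anaesthetised and shaved and carried the electrodes for 10 minutes without current. The labels give no kind of nerve injury, no collection time for SHAM and DN and no statement that libraries came from separate animals, so p-values measure only the spread between these libraries, which may be technical.

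Mitochondria make most of the ATP of working muscle by passing electrons from NADH (complex I) and succinate (complex II) through complex III to oxygen at complex IV, while complex V uses the proton gradient so formed to make ATP. Complexes I, III, IV and V are partly encoded in mitochondrial DNA, and the nuclear genes supply the other subunits. Slow and fast oxidative fibres hold more mitochondria than fast glycolytic fibres, and several complex IV subunits exist in a form typical of heart and skeletal muscle and a form found in most tissues. Nuclear respiratory factor 1 (NRF1) and GABPA (also called nuclear respiratory factor 2) are transcription factors known to act on many of these genes.

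Promoters are shown for members on which the results below turn: Cox8a, which was higher in DN than in SHAM, Ndufs1 and Uqcrc2, whose group means were highest in DN-SM, and Cox8b and Cox6a2, the muscle forms set against the ubiquitous subunits. Each run is the 250 bases before the gene's start in RefSeq (build GRCr8), written 5′ to 3′ on the gene's strand. They lie at chr1:213833624-213833873 (Cox8a, minus strand), chr9:72073606-72073855 (Ndufs1, minus), chr1:184598990-184599239 (Uqcrc2, plus), chr1:205408274-205408523 (Cox8b, minus) and chr1:192219717-192219966 (Cox6a2, minus). Capitals mark matches to the motifs searched.
Cox8a: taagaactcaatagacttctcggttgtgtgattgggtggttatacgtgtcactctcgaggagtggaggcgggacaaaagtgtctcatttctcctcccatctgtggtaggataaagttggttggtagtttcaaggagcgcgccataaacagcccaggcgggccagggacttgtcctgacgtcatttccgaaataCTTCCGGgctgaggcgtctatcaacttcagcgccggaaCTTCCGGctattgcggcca
Ndufs1: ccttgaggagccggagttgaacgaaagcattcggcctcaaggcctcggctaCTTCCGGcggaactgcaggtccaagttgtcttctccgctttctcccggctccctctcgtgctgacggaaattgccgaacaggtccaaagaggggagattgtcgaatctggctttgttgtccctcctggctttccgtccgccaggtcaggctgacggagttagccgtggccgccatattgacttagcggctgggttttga
Uqcrc2: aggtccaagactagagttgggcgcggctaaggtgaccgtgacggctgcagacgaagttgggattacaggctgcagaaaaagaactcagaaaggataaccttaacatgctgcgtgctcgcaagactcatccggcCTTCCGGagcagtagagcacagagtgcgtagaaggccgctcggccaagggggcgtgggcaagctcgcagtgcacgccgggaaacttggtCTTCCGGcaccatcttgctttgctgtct
Cox8b: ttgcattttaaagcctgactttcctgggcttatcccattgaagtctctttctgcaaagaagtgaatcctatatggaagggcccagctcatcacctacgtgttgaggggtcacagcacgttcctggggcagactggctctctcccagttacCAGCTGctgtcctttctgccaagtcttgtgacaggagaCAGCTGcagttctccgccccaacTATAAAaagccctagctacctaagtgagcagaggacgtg
Cox6a2: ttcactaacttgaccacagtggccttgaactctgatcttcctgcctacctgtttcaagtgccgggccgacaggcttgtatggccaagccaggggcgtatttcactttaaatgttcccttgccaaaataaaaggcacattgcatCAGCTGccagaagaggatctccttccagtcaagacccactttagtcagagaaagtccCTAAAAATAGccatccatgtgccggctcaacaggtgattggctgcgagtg
In Cox8a the capitals are GABPA motifs on the reverse strand, at -57 and -19, counting from the gene's start, with -1 the last base of the run. Ndufs1 has 1 such motif at -199, and Uqcrc2 has one at -117 and one at -28. The promoter of Cox8b holds E-boxes at -100 and -62 and a TATA box at -39, and that of Cox6a2 an E-box at -107 and a MEF2 motif at -50.

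The motif search covered both strands of the same 250 bases in the 69 members that the promoter table holds and in all 27457 genes of that table. The GABPA motif (CCGGAAG) was in 20 members, or 29.0%, and in 8.11% of all genes. The NRF1 core (GCGCATGC) was in 8 members (11.6%) and in 2.48% of all genes, and the full NRF1 palindrome, which contains the core, in 4 (5.80%) and 0.87%. ESRRA (TCAAGGTCA) was in 1 member and 0.397% of all genes, and YY1 (AAGATGGCG) in 1 member and 0.768%. 3 motifs typical of tissue-specific genes were added to the search after the data were seen. The TATA box (TATAAA) was in 6 members (8.70%) and 14.1% of all genes, the E-box (CAGCTG) in 8 (11.6%) and 12.9%, and the MEF2 motif in Cox6a2 only among the members and in 0.127% of all genes. These matches are letters in a window and were not tested for binding.

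Depth was 7926445 to 8893843 expected counts per library, and 79 of the 80 members reached a count of 10 in all 9 libraries, the exception being Ndufa10l1. Members were short and abundant: their median transcript length was 649 bases against 2184 over the 10129 genes tested, and their median FPKM (the authors' level, scaled to transcript length and library size, averaged over 9 libraries) was 371.5 against 5.72. Of the 500 genes with the highest FPKM, 70 were members. Together they made up 2.61% to 3.68% of counts and 5.20% to 7.12% of FPKM. The muscle identity of the samples was plain from 10 measured markers of skeletal muscle fibres (among them Acta1, Ckm and Myh4), whose summed FPKM was 133867 to 158467 in every library.

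The libraries of a group were not alike in these genes. SHAM replicate 2 was the lowest of the 9 libraries, on log2 CPM (CPM, counts scaled to library size), for 43 of 80 members (53.8%, against 17.4% of all genes), among them 11 of 16 in complex IV and 11 of 17 in complex V. DN replicate 1 was the lowest for another 20 members (25.0%, against 15.0% of all genes). It lay more than 0.5 log2 units below both other DN libraries in 13 members (16.2%, against 5.42% of all genes). Its largest gaps were in Cox6c (-0.98), Atp5mk (-0.90), Cox7b (-0.90) and Uqcrh (-0.78), genes singled out after their values were seen. DN-SM replicate 3 was the highest library for 28 members. Calls, most medians and some of the estimates are therefore also given below without SHAM replicate 2 or DN replicate 1. Of the estimates of members named here, leaving out SHAM replicate 2 changed the sign or moved the size by over 1.5 times for 14 of 25 in DN against SHAM and 16 of 24 in DN-SM against SHAM. Leaving out DN replicate 1 did so for 9 of 25 in DN against SHAM and 11 of 23 in DN-SM against DN. The median SD of log2 CPM within a group was smaller for members (0.15 for SHAM, 0.12 for DN, 0.09 for DN-SM) than for all genes (0.25, 0.19 and 0.17). Members were far more abundant than genes at large, and the sets were not matched for level.

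**Figure D1:**
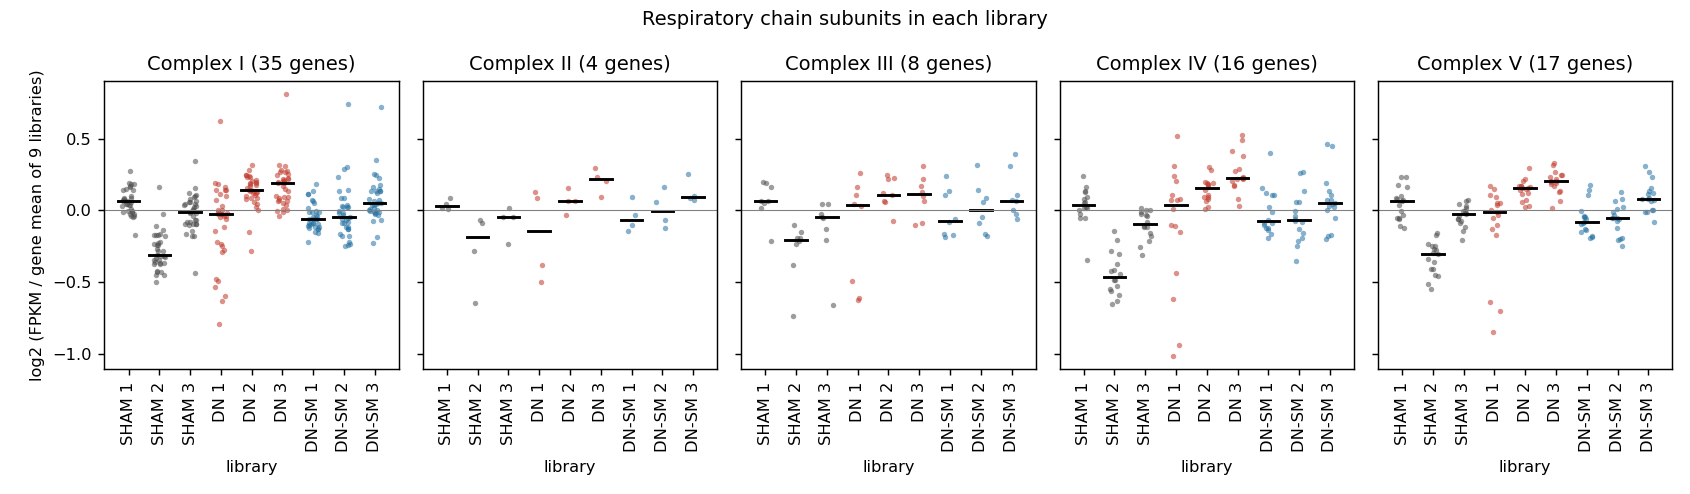
Level of each subunit gene (points) in each of the 9 libraries, as log2 of FPKM over the gene's mean of the 9 libraries, by complex, with the median as a bar; Ndufa10l1 is not drawn in the 3 libraries whose files have no line for it. SHAM replicate 2 has the lowest median in all 5 panels (-0.31 in complex I, -0.47 in complex IV), and DN replicate 1 has a tail of low genes in complexes I, III, IV and V.

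Among the nuclear-encoded members, those of complexes IV and V together held the largest shares of FPKM. Complex IV took 1.95% ± 0.305 of all FPKM for SHAM, 2.25% ± 0.164 for DN and 2.10% ± 0.119 for DN-SM (SD, n = 3). Complex V took 1.90% ± 0.218, 2.08% ± 0.174 and 1.93% ± 0.104, and complex I 1.54% ± 0.182, 1.66% ± 0.104 and 1.54% ± 0.0635. The shares of complex III were 0.463% ± 0.0484, 0.494% ± 0.0230 and 0.466% ± 0.0212, and those of complex II 0.196% ± 0.0231, 0.218% ± 0.0213 and 0.211% ± 0.0163. In each complex DN had the highest mean share, and its difference from SHAM was smaller than the sum of the SDs. This order is one of FPKM, on which the median of all genes moved too. By limma on log2 FPKM (pseudocount 1) that median was 0.053 in DN against SHAM and -0.092 in DN-SM against DN. In the edgeR fit of counts it was -0.011 in each. The members' median in DN-SM against DN by edgeR was positive in complexes II (0.08) and III (0.01) and negative in the others. On a scale where each gene counts once, the median member's log2 FPKM over its own mean was -0.10 ± 0.19 for SHAM, 0.11 ± 0.12 for DN and -0.01 ± 0.07 for DN-SM. The library values overlapped between all groups, since SHAM replicate 1 was at 0.06, above DN replicate 1 at -0.02.

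Levels differed widely among members. Cox6a2, the muscle form of a small complex IV subunit, was highest at a mean of 5241 FPKM, followed by Atp5f1b (2797), the catalytic beta subunit of ATP synthase, Atp5f1a (1565), its alpha subunit, and Cox8b (1561), another muscle form in complex IV. Cox4i2, the lung-type form of subunit 4, was lowest at 9.76, and Ndufa4l2 next at 17.7. The most abundant gene of complex I was Ndufb8, an accessory subunit of the membrane arm (642 FPKM), that of complex II Sdhb, the iron-sulphur subunit (492), and that of complex III Uqcr10, a small accessory subunit (663).

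The comparison of DN with SHAM asked what nerve injury does to these transcripts. The edgeR test called Cox6a1 and Cox8a, the ubiquitous forms of 2 small complex IV subunits, higher in DN, and it called no member lower. This is 2 of 80 members against 2.57% of all 10129 genes called higher, and 0 against 1.7% called lower, and in either direction 4.26% of all genes were called, so members were not called more often than genes at large. With the edgeR test 10 members (12.5%, against 22.3% of all genes) had an unadjusted p under 0.05, all of them higher in DN. DESeq2 also called these 2 members alone, with 9.01% of all genes called. Estimates leaned upward but were small: 64 of 80 were above 0 (48.7% of all genes), with a median log2 fold change of 0.10 against -0.01 over all genes. The lean rested in part on SHAM replicate 2, without which the members' median was 0.04. It was 0.18 without SHAM replicate 3 and 0.14 without DN replicate 1. With an offset for transcript length it was 0.03.

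Cox6a1 (gene ID 25282), the liver-type and widely expressed subunit 6A, had 128, 85.8 and 117 FPKM for SHAM, 190.4, 143 and 177 for DN and 122, 115 and 117 for DN-SM. All 3 DN libraries lay above all SHAM and DN-SM libraries. The log2 fold change in DN against SHAM was 0.56 (SE 0.14, 95% interval 0.26 to 0.87, edgeR adjusted p = 0.0439). Cox8a (gene ID 171335), the ubiquitous subunit 8, had 103, 68.5 and 87.2 FPKM for SHAM, 119.7, 114 and 142 for DN and 90.4, 95.8 and 89.8 for DN-SM. Its DN libraries were again above all others, with a log2 fold change of 0.48 (SE 0.12, 95% interval 0.21 to 0.74, edgeR adjusted p = 0.0473).

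Both calls were near the threshold. Over 20 alternatives Cox6a1 passed in 8, with log2 fold changes of 0.43 to 0.67 and edgeR, DESeq2 or limma adjusted p of 0.017 to 0.145, and Cox8a in 3 (0.37 to 0.55, adjusted p 0.024 to 0.168). With 1 library left out, Cox6a1 passed when that library was SHAM replicate 3 or DN replicate 2 and lost its call in the other 7 fits, and Cox8a passed in the fit lacking SHAM replicate 3 alone. Neither passed in the fit of the 2 groups alone, which called 1.57% of all genes. Without SHAM replicate 3, which gave 5 members and 11.5% of all genes, Atp5mc3, Atp5po and Ndufb10 passed as well. Without SHAM replicate 2 the log2 fold changes were 0.44 (adjusted p = 0.137) and 0.37 (adjusted p = 0.15), and without DN replicate 1 they were 0.43 (adjusted p = 0.145) and 0.47 (adjusted p = 0.113).

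The muscle partners of these subunits were far more abundant and did not pass the test. Cox6a2 (gene ID 25278) had 5533, 3908 and 4828 FPKM for SHAM, 5659, 5528 and 6091 for DN and 5321, 4790.3 and 5515 for DN-SM. SHAM replicate 1 lay just above the lowest DN library in FPKM, and the log2 fold change in DN against SHAM was 0.21 (SE 0.13, adjusted p = 0.346). Cox8b (gene ID 25250) had 1629, 1068 and 1475 FPKM for SHAM, 1643, 1784 and 1911 for DN and 1436, 1483 and 1622 for DN-SM. In FPKM its DN libraries were above every other, while on log2 CPM DN and DN-SM overlapped. Its log2 fold change in DN against SHAM was 0.29 (SE 0.12, adjusted p = 0.186). Without SHAM replicate 2 the estimates were 0.12 for Cox6a2 and 0.16 for Cox8b.

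**Figure D2:**
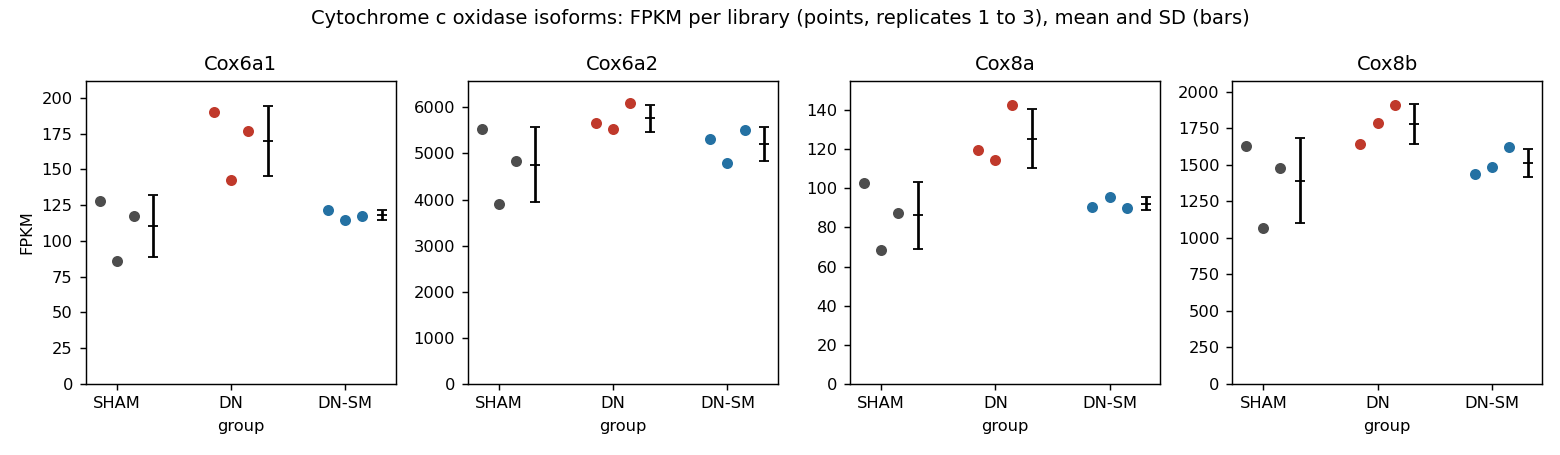
FPKM of the ubiquitous (Cox6a1, Cox8a) and muscle (Cox6a2, Cox8b) forms of 2 complex IV subunits in each library (points, replicates 1 to 3 from left) with group mean and SD (bars). All DN libraries of Cox6a1 (143 to 190.4) and Cox8a (114 to 142) lie above all SHAM and DN-SM libraries, and the muscle forms are many times more abundant.

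The balance of isoforms within a library does not depend on library scaling, and 6 of the 8 isoform pairs considered had both genes among the members. The log2 ratio of Cox6a2 to Cox6a1 FPKM was 5.44 ± 0.07 for SHAM, 5.09 ± 0.19 for DN and 5.46 ± 0.09 for DN-SM (SD, n = 3), that is 41.2 to 45.6 copies of the muscle form per ubiquitous one for SHAM, 29.7 to 38.7 for DN and 41.8 to 47.0 for DN-SM. The DN libraries did not overlap with either other group. Over 18 tests of pairs and comparisons, the smallest p that an exact permutation test of 3 against 3 can give is 0.1, which was reached here and is 0.257 after Benjamini-Hochberg adjustment, so no ratio could pass. The difference was -0.35 in DN against SHAM and 0.37 in DN-SM against DN.

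Ndufa4l2, a paralog of Ndufa4 known to be induced by hypoxia, was scarce, with 11.75 to 18.4 FPKM for SHAM, 20.9 to 21.9 for DN and 15.45 to 16.7 for DN-SM. Its log2 ratio to Ndufa4 was -4.76 ± 0.11 for SHAM, -4.33 ± 0.36 for DN and -4.95 ± 0.10 for DN-SM, and DN did not overlap with either group (exact permutation p = 0.1 each, n = 3). The DN ratios were -3.925, -4.453 and -4.602 for replicates 1 to 3, the last close to SHAM replicate 3 at -4.68. In DN replicate 1 Ndufa4 itself was low, at 333 FPKM. The log2 ratio of Atp5mc1 to Atp5mc3, which encode the same mature c subunit of the ATP synthase ring, was 2.03 ± 0.16, 1.93 ± 0.04 and 1.77 ± 0.05, with DN-SM below every library of the other groups (exact permutation p = 0.1 against each, n = 3). For Cox8b to Cox8a it was 4.01 ± 0.06, 3.83 ± 0.12 and 4.04 ± 0.12, and the groups overlapped. Ratios of Cox4i2 to Cox4i1 overlapped in all comparisons.

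By complex, the lean in DN against SHAM was largest in complex IV, whose median log2 fold change was 0.22, against 0.09 in complex I, 0.02 in complex II, 0.07 in complex III and 0.12 in complex V. Differences between complexes were not tested. In complex IV 7 of 16 members had an unadjusted p under 0.05, all of them higher in DN. In the other complexes it was 1 of 35, 1 of 4, 0 of 8 and 1 of 17, and over all genes tested 22.3%. On log2 CPM, 17 of 80 members had all DN libraries above all SHAM libraries, against 14.1% of all genes, and 8 of the 17 were in complex IV. Ndufb3, an accessory subunit of complex I, was the only member with all DN libraries below all SHAM libraries (10.1% of all genes), at a log2 fold change of -0.32 (SE 0.16, adjusted p = 0.243). In FPKM these groups overlapped, and without DN replicate 1 the estimate was -0.14. Without SHAM replicate 2 the medians were 0.01 in complex I, 0.004 in complex II, 0.04 in complex III, 0.14 in complex IV and 0.04 in complex V. Without DN replicate 1 they were 0.14, 0.08, 0.10, 0.26 and 0.15 in turn.

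In complex IV, Cox4i1, the common form of the regulatory subunit 4, had 1270.2, 895 and 1221 FPKM for SHAM, 1445, 1422 and 1446 for DN and 1138, 1122 and 1320.4 for DN-SM. In FPKM the DN libraries were above all others, while on log2 CPM DN and DN-SM overlapped. The log2 fold change of 0.28 in DN against SHAM did not pass (SE 0.13, adjusted p = 0.215). Cox4i2 had 9.42, 6.21 and 9.05 FPKM for SHAM, 10.3, 12.0 and 14.1 for DN and 9.70, 7.63 and 9.39 for DN-SM. Its DN libraries overlapped with neither group (log2 fold change in DN against SHAM 0.49, SE 0.21, adjusted p = 0.186). Cox7a2, the ubiquitous form of subunit 7A, had 494, 353 and 496 FPKM in SHAM and 444, 564 and 579 in DN. Here the groups overlapped (0.17, SE 0.13, adjusted p = 0.472). Ndufa4 had 481, 347 and 447 FPKM in SHAM and 333, 472 and 507 in DN, with a log2 fold change of -0.03 (SE 0.14, adjusted p = 0.915). Without SHAM replicate 2 Cox4i1 was at 0.17, Cox7a2 at 0.05 and Ndufa4 at -0.13.

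Complex II is encoded wholly in the nucleus, and none of its 4 subunits passed the edgeR test in any comparison. Sdhb, which carries the iron-sulphur clusters, had 507, 314 and 418 FPKM for SHAM, 524, 549 and 604 for DN and 458, 469 and 586 for DN-SM. DN was above SHAM in every library (log2 fold change 0.37, SE 0.14, adjusted p = 0.133; 0.24 without SHAM replicate 2). Sdhc, a membrane anchor, had 375, 305 and 360.0 FPKM in SHAM and 406, 389.8 and 437 in DN, again without overlap (0.17, SE 0.11, adjusted p = 0.366). Sdha, the flavoprotein that oxidises succinate, had 273, 246 and 261 FPKM for SHAM, 198, 269.9 and 275 for DN and 252, 268 and 277 for DN-SM. DN replicate 1 was its lowest library, and its log2 fold change in DN against SHAM was -0.15 (SE 0.12, adjusted p = 0.499). Sdhd, the other anchor, had 223, 207 and 214 FPKM for SHAM, 156, 216 and 254 for DN and 235, 246 and 232 for DN-SM, with a log2 fold change of -0.13 in DN against SHAM (SE 0.13, adjusted p = 0.616). Without DN replicate 1 these estimates were -0.04 for Sdha and 0.01 for Sdhd.

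In complex I, Ndufb10, an accessory subunit of the membrane arm, had 421, 323 and 429.65 FPKM for SHAM, 480.4, 497 and 530.1 for DN and 397, 425 and 414 for DN-SM. Every DN library was above every other library, and its p was the smallest of complex I in DN against SHAM (log2 fold change 0.29, SE 0.11, adjusted p = 0.143). Ndufv1, which binds NADH, had 403, 282 and 363 FPKM in SHAM and 431, 434 and 411 in DN (0.22, SE 0.13, adjusted p = 0.324). Ndufb8 had 674, 499 and 614 FPKM in SHAM and 638, 763 and 766.5 in DN, with overlap (0.21, SE 0.12, adjusted p = 0.314). Without SHAM replicate 2 Ndufv1 was at 0.12 and Ndufb8 at 0.13. The estimates of Ndufs1, the largest subunit of the NADH-oxidising arm, were on the other side of 0 (-0.21, SE 0.14, adjusted p = 0.40).

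In complex III, Uqcrfs1, the Rieske iron-sulphur protein, had 536, 447 and 495 FPKM in SHAM and 549.8, 549.5 and 536 in DN (log2 fold change 0.08, SE 0.10, adjusted p = 0.701). Uqcrc1, a core subunit, was at 0.20 (SE 0.13, adjusted p = 0.377), Uqcrq, a small subunit, at 0.26 (SE 0.18, adjusted p = 0.445) and Uqcr10 at 0.09 (SE 0.10, adjusted p = 0.652). In complex V, Atp5f1b had 2698, 2376 and 2653 FPKM for SHAM, 2781, 3142 and 3222 for DN and 2639.7, 2699 and 2959 for DN-SM. DN was above SHAM in every library by a small margin (0.17, SE 0.13, adjusted p = 0.473). Atp5po, the oligomycin-sensitivity subunit of the stalk, had 614, 504 and 665 FPKM in SHAM and 691, 770.3 and 842 in DN (0.29, SE 0.12, adjusted p = 0.175). Atp5f1a was at 0.05 (SE 0.13, adjusted p = 0.848), and Atp5if1, which blocks ATP hydrolysis, at 0.07 (SE 0.17, adjusted p = 0.843).

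**Figure D3:**
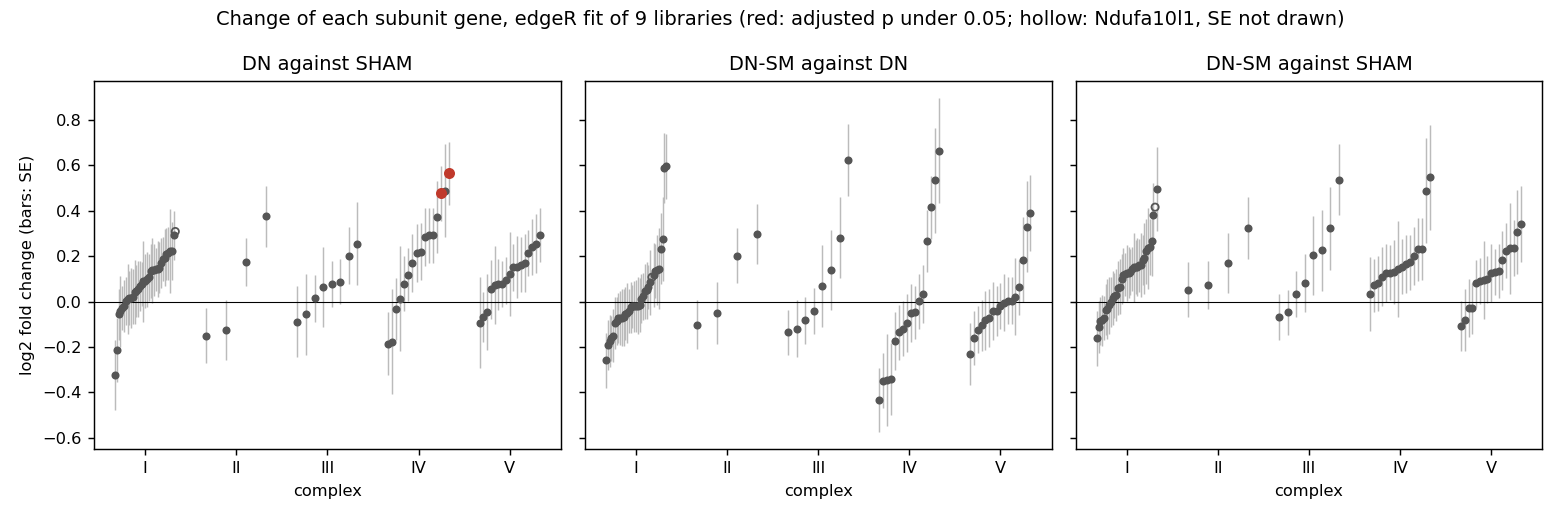
Log2 fold change of each of the 80 subunit genes in each comparison (points; bars are the SE), ordered by size within each complex; red points have an adjusted p under 0.05 and the hollow point is Ndufa10l1, whose SE is too large to draw. The only red points are Cox6a1 and Cox8a in DN against SHAM, and most points there lie above 0.

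The intervals were set beside a 2-fold bound, which is wide for changes as small as those estimated, and that of Cox6a1 reached 0.87. Members were more abundant than genes at large (median FPKM 371.5 against 5.72), and their intervals were narrower. The median half-width in DN against SHAM was 0.27 log2 units for members and 0.445 for all genes. In DN against SHAM the 95% interval of the log2 fold change lay within a 2-fold difference in either direction for 79 of 80 members, against 70.6% of all genes. The same held for 77 of 80 members in DN-SM against DN and 78 of 80 in DN-SM against SHAM (72.1% and 76.9% of all genes). Ndufa10l1 was an exception in each, joined by Cox6c and Cox7b in DN-SM against DN and by Cox6c in DN-SM against SHAM.

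Comparing DN-SM with DN addressed what stimulation did in the injured muscle. The edgeR test called 0 of 80 members, and 0.00987% of all genes, which is 1 gene of 10129. At an unadjusted p under 0.05 there were 8 members higher and 2 lower in DN-SM, together 12.5% of members against 17.6% of all genes. The Wald test of DESeq2 called 3 members higher (Ndufs1, Uqcrc2 and Ndufb3) and 2.82% of all genes it tested. The edgeR fit that held DN and DN-SM only called 2 members (Ndufs1 and Uqcrc2) and 7.18% of all genes. Members lay on both sides of 0, with 34 of 80 above it and a median log2 fold change of -0.02 against -0.01 over all genes. Without DN replicate 1 the members' median was -0.04. On log2 CPM 9 members had all DN-SM libraries above all DN libraries (17% of all genes) and 12 had them below (13.3%). This comparison shares the DN libraries with the one above, so a low or high DN library enters both with opposite sign.

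The members with the smallest p were Ndufs1 (gene ID 301458) and Uqcrc2 (gene ID 293448), a core subunit of complex III. Ndufs1 had 157, 115 and 96.0 FPKM for SHAM, 93.0, 107 and 133 for DN and 143, 159 and 166 for DN-SM. All DN-SM libraries were above all DN libraries (log2 fold change 0.59, SE 0.14, 95% interval 0.29 to 0.90, edgeR adjusted p = 0.144). Uqcrc2 had 224, 172 and 124 FPKM for SHAM, 139, 187 and 185 for DN and 232, 244 and 258 for DN-SM. Its DN-SM libraries were above those of both other groups (log2 fold change against DN 0.62, SE 0.16, 95% interval 0.28 to 0.96, edgeR adjusted p = 0.144). Fitted without SHAM, the log2 fold changes were 0.60 (adjusted p = 0.0114) and 0.63 (adjusted p = 0.00852). Over 20 alternatives the adjusted p ran from 0.0114 to 0.364 for Ndufs1 and from 0.00852 to 0.364 for Uqcrc2, and each passed in 4. Among fits with 1 library left out, both passed when SHAM replicate 2 or SHAM replicate 3 was the one (3.3% and 4.04% of all genes called), libraries that enter this comparison through the shared spread. Without DN replicate 1 they were at 0.52 and 0.53 (adjusted p = 0.361 for both). Fitted without SHAM and DN replicate 1, a setting added after the data were seen that called 4.86% of all genes, Ndufs1 was at 0.52 (edgeR adjusted p = 0.0297) and Uqcrc2 at 0.53 (adjusted p = 0.0187).

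Ndufb3, chosen here after its values were seen, had 119, 112 and 106 FPKM for SHAM, 65.4, 102 and 117 for DN and 123, 140.1 and 135 for DN-SM. DN-SM was above both other groups in every library, and DN replicate 1 was far below the rest (log2 fold change against DN 0.59, SE 0.16, adjusted p = 0.144; 0.41 with adjusted p = 0.0461 when fitted without SHAM and DN replicate 1). Cox7b, an accessory subunit of complex IV, had 452, 286 and 308 FPKM for SHAM, 189, 389.6 and 391.7 for DN and 505, 399 and 523 for DN-SM. This was the largest estimate of any member in DN-SM against DN, at 0.66 (SE 0.23, adjusted p = 0.202), and it was 0.42 without DN replicate 1. Atp5pb, subunit b of the ATP synthase stalk, had 369.6, 329.8 and 322 FPKM for SHAM, 228, 412 and 407 for DN and 421, 405 and 447 for DN-SM. Its log2 fold change of 0.39 (SE 0.17, adjusted p = 0.254) was 0.19 without DN replicate 1, and that of Sdhd was 0.30 (SE 0.13, adjusted p = 0.269) with it and 0.15 without.

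**Figure D4:**
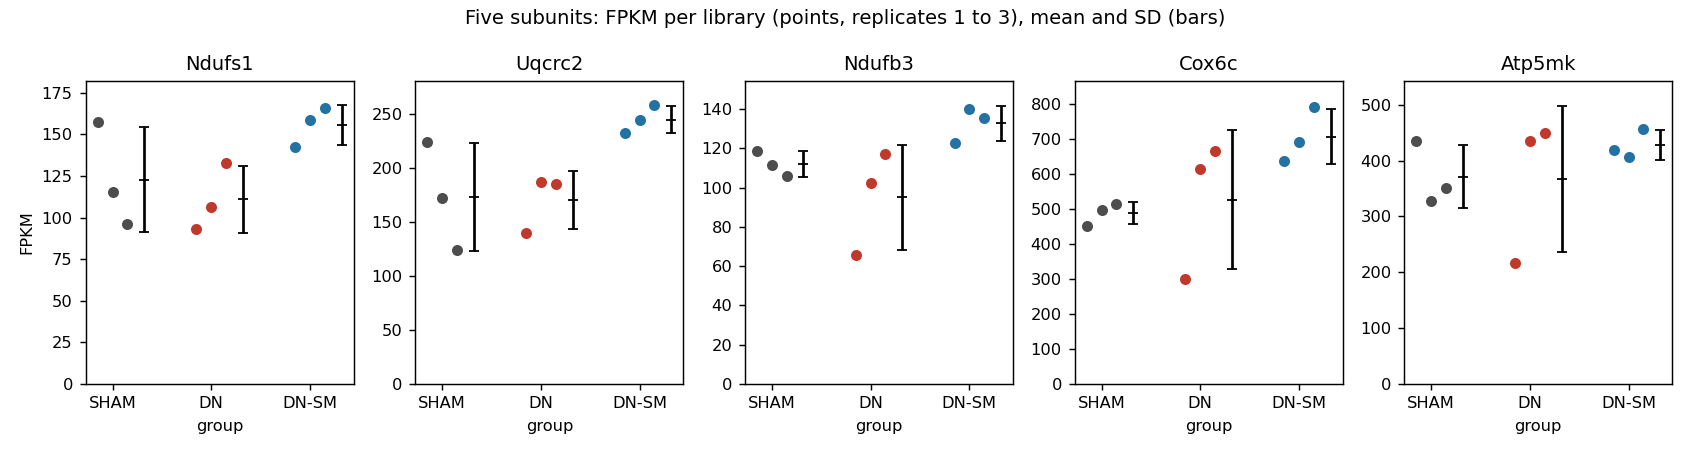
FPKM in each library (points, replicates 1 to 3 from left) of Ndufs1, Uqcrc2, Ndufb3, Cox6c and Atp5mk, with group mean and SD (bars). DN-SM libraries of Uqcrc2 (232 to 258) lie above all others, while the wide DN bars of Cox6c and Atp5mk come from DN replicate 1, at 299 and 216 FPKM.

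The 2 members called higher in DN against SHAM had negative estimates in DN-SM against DN without passing: -0.43 for Cox6a1 (SE 0.14, adjusted p = 0.186) and -0.35 for Cox8a (SE 0.12, adjusted p = 0.195). Cox4i2 was at -0.35 (SE 0.20, adjusted p = 0.386), Cox4i1 at -0.18 (SE 0.13, adjusted p = 0.484), Cox8b at -0.14 (SE 0.12, adjusted p = 0.574) and Cox6a2 at -0.05 (SE 0.13, adjusted p = 0.865). Ndufa4 and Cox7a2 were at 0.27 (SE 0.14, adjusted p = 0.326) and 0.03 (SE 0.13, adjusted p = 0.917). In DN-SM against DN, complex IV thus spread from -0.43 to 0.66, the widest range of any complex, around a median of -0.07. The medians were -0.02 in complex I, 0.08 in complex II, 0.01 in complex III and -0.02 in complex V. Without DN replicate 1 the medians of complexes I to V were -0.031, 0.019, -0.009, -0.095 and -0.052.

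The remaining members named by rule did not pass either. Sdha was at 0.20 (SE 0.12, adjusted p = 0.388), Sdhb at -0.05 (SE 0.14, adjusted p = 0.869) and Sdhc at -0.10 (SE 0.11, adjusted p = 0.638) in DN-SM against DN. Uqcrfs1 was at -0.04 (SE 0.10), with 491, 494 and 503 FPKM in DN-SM, and Uqcr10 at -0.14 (SE 0.10), with all DN-SM libraries (589, 624.5 and 637) below all DN libraries (683, 719.8 and 770.5). Ndufv1 was at -0.07 (SE 0.13) and Ndufb8 at -0.15 (SE 0.12). In the ATP synthase, Atp5f1a was at -0.08 (SE 0.13), Atp5f1b at -0.04 (SE 0.13) and Atp5if1 at 0.02 (SE 0.17). None of these had an adjusted p under 0.388.

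DN-SM against SHAM set the injured and stimulated muscle beside the uninjured one, with both groups shared with the comparisons above. The edgeR test called 0 of 80 members, against 0.839% of all genes. At an unadjusted p under 0.05 there were 5 members higher and 0 lower, or 6.25% of members against 12.8% of all genes. DESeq2 called 0 members and 2.98% of all genes, and the fit of these 2 groups alone 0 members and 0.284%. Estimates were above 0 for 65 of 80 members (81.2%, against 52.5% of all genes), including all 16 in complex IV and all 4 in complex II, and the median log2 fold change was 0.13 against 0.02 over all genes. Leaving out SHAM replicate 2 gave 0.05 and leaving out SHAM replicate 3 gave 0.20. On log2 CPM 19 members had all DN-SM libraries above all SHAM libraries (9.36% of all genes), and 0 had them below (8.98%).

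Uqcrc2 had the smallest p, with a log2 fold change of 0.54 in DN-SM against SHAM (SE 0.16, adjusted p = 0.149). Ndufs1 was at 0.38 (SE 0.14, adjusted p = 0.26). Ndufs4, an accessory subunit needed for a complete NADH-oxidising arm, had 62.1, 49.5 and 62.4 FPKM for SHAM, 45.2, 85.0 and 84.3 for DN and 75.7, 82.4 and 83.2 for DN-SM. All DN-SM libraries were above all SHAM libraries, while DN replicate 1 was the lowest of the 9 (log2 fold change 0.50, SE 0.18, adjusted p = 0.27). Cox6c, a small complex IV subunit, had 452, 496 and 515 FPKM for SHAM, 299, 613 and 666 for DN and 638, 689 and 791 for DN-SM, again without overlap between DN-SM and SHAM (0.55, SE 0.23, adjusted p = 0.353). Sdhb was at 0.32 (SE 0.14, adjusted p = 0.336) and at 0.20 without SHAM replicate 2, and Atp5pb at 0.34 (SE 0.17, adjusted p = 0.421).

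Cox6a1 and Cox8a were close to SHAM in DN-SM, at 0.13 (SE 0.14, 95% interval -0.18 to 0.43, adjusted p = 0.746) and 0.13 (SE 0.12, 95% interval -0.14 to 0.39, adjusted p = 0.706). The other subunits named by rule lay between -0.05 (Uqcr10) and 0.23 (Ndufa4) in DN-SM against SHAM. Among them Cox4i1 was at 0.11, Cox4i2 at 0.14, Cox6a2 at 0.17, Cox7a2 at 0.20, Cox8b at 0.15, Sdha at 0.05, Sdhc at 0.07, Sdhd at 0.17, Uqcrfs1 at 0.03, Ndufb8 at 0.06, Ndufv1 at 0.15, Atp5f1a at -0.03, Atp5f1b at 0.13 and Atp5if1 at 0.09. None of these had an adjusted p under 0.513.

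Few other genes of the respiratory pathway passed. Of 19 tested electron carriers and inner membrane dehydrogenases, Coq6, an enzyme of ubiquinone synthesis, rose in DN against SHAM, at 24.1 ± 3.22 FPKM for SHAM and 34.1 ± 3.15 for DN (log2 fold change 0.44 with an SE of 0.11, edgeR adjusted p = 0.0439). At an unadjusted p under 0.05 6 of the 19 were counted in DN against SHAM, 5 in DN-SM against DN and 2 in DN-SM against SHAM. Over all genes the shares were 22.3%, 17.6% and 12.8%, and edgeR called 2.57% of all genes higher in DN against SHAM. DESeq2 called 2, 0 and 0, against 9.01%, 2.82% and 2.98% of all genes. The median of the 19 was 0.16 in DN against SHAM, -0.02 in DN-SM against DN and 0.11 in DN-SM against SHAM. Cyc1, the complex III subunit outside the name rule, had 548.5 ± 83.9 FPKM for SHAM, 731 ± 37.8 for DN and 595 ± 31.8 for DN-SM (0.35 in DN against SHAM, SE 0.12, adjusted p = 0.117). Cycs, the cytochrome c that carries electrons from complex III to complex IV, had an estimate below 0, with 340.3 ± 54.7, 282 ± 84.1 and 403 ± 29.0 FPKM (-0.36, SE 0.19, adjusted p = 0.294). In DN-SM against DN Cycs was at 0.62 (SE 0.19, adjusted p = 0.179).

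None of 38 assembly factors, 18 regulators of respiratory genes and 15 genes of supercomplexes and cristae passed the edgeR test in any comparison. At an unadjusted p under 0.05 there were 4, 3 and 2 in DN against SHAM, 7, 3 and 4 in DN-SM against DN, and 4, 3 and 0 in DN-SM against SHAM, beside shares over all genes of 22.3%, 17.6% and 12.8% in turn. DESeq2 called 1 assembly factor in the first comparison, 2 in the second together with 1 cristae gene, and 0 of the 3 lists in the last. Of all genes it called 9.01%, 2.82% and 2.98%. The medians that follow are given for the 3 lists in the order above. Their medians in DN against SHAM were -0.08, -0.19 and 0.02. They were 0.08, 0.09 and -0.08 in DN-SM against DN, and 0.12, -0.04 and 0.04 in DN-SM against SHAM. Ppargc1a, a coactivator that drives mitochondrial biogenesis, had 1.30 ± 0.365 FPKM for SHAM, 1.08 ± 0.122 for DN and 1.54 ± 0.469 for DN-SM (log2 fold change in DN-SM against DN 0.61, SE 0.29, adjusted p = 0.29). Tfam, which packages and transcribes mitochondrial DNA, had 22.6 ± 3.99, 21.5 ± 4.51 and 24.7 ± 1.44 FPKM.

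The summed FPKM of 9 slow-fibre markers (among them Myh7, Tnni1 and Tnnt1) varied between libraries in an order that partly followed that of the subunit genes. It was 16356, 4413 and 10622 for SHAM, 16718, 16195 and 22212 for DN and 7883, 7959 and 18305 for DN-SM. In the same order the members' share of FPKM was 6.72%, 5.20% and 6.23% for SHAM, 6.18%, 6.81% and 7.12% for DN and 6.09%, 6.05% and 6.62% for DN-SM. SHAM replicate 2 was lowest and DN replicate 3 highest on both. The same libraries were lowest and highest for endothelial (114 and 227 FPKM), brown fat (2.2 and 13.1) and cardiac muscle markers (41.6 and 202). So they were for the electron carrier (2243 and 3376) and assembly factor lists (1002 and 1161). On the fast-fibre sum they were reversed, at 89608 and 54553. DN replicate 1 exceeded DN replicate 2 on the slow-fibre markers but not on the members' share. The edgeR test called 0 of the 9 markers in each comparison, as did DESeq2. At an unadjusted p under 0.05 there were 1, 0 and 0, against 22.3%, 17.6% and 12.8% of all genes. Their median log2 fold changes were 0.78 in DN against SHAM, -0.46 in DN-SM against DN and 0.25 in DN-SM against SHAM. The part of fibre makeup in the members' values was not tested. In such bulk samples fewer cells of a type and less RNA per cell cannot be told apart.

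**Figure D5:**
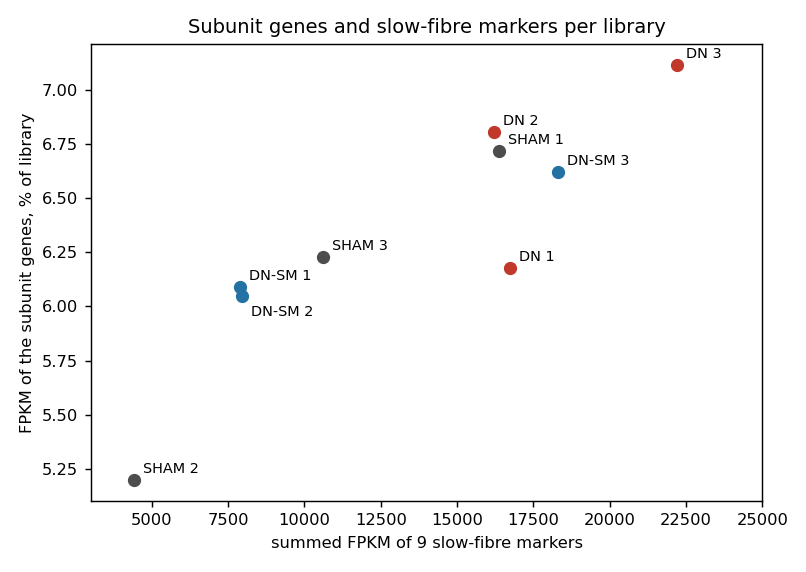
Share of a library's FPKM held by the 80 subunit genes (vertical, %) against the summed FPKM of 9 slow-fibre markers (horizontal), 1 point per library. The library with the lowest markers, SHAM replicate 2 (4413), has the lowest share (5.20%), and that with the highest, DN replicate 3 (22212), the highest share (7.12%).

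Markers of other cells also differed between groups. Of 8 endothelial markers 4 rose in DN against SHAM (Pecam1, Cdh5, Tie1 and Egfl7), with the sum at 114 to 135 FPKM for SHAM, 178 to 227 for DN and 151 to 175 for DN-SM, and Cdh5 was also higher in DN-SM than in SHAM. Of 7 Schwann cell markers 2 rose in DN against SHAM (Mbp and Ngfr), with sums of 60.2 to 69.0, 132 to 308 and 77.9 to 172 FPKM. The edgeR test called 2.57% of all genes higher in DN against SHAM and 0.415% higher in DN-SM against SHAM. In DN against SHAM DESeq2 called 4 endothelial and 5 Schwann cell markers, and 6 of each had an unadjusted p under 0.05, against 9.01% and 22.3% of all genes. Cidea, a lipid droplet protein, was the 1 gene called of 3 tested on the brown fat list. It rose in DN against SHAM by 2.05 on the log2 scale (SE 0.46, edgeR adjusted p = 0.0361). Ppargc1a, on the same list, was at -0.325 (SE 0.29, adjusted p = 0.558), and the list's median was 0.30. Ucp1 was not analysed here. No marker of skeletal muscle fibres (10 tested), fast fibres (10), adipocytes (6), macrophages (8), fibroblasts (7), erythroid cells (4) or cardiac muscle (1) passed the edgeR test in any comparison. In DN against SHAM 3, 3, 1, 0, 0, 0 and 0 of them had an unadjusted p under 0.05, and DESeq2 called 1, 2, 1, 0, 0, 0 and 0. In DN-SM against DN these counts were 2, 4, 2, 0, 0, 0 and 0, with 0 by DESeq2, against 17.6% and 2.82% of all genes. In DN-SM against SHAM they were 1, 1, 1, 0, 2, 0 and 0, with 1 adipocyte and 1 fibroblast marker by DESeq2, against 12.8% and 2.98% of all genes. Apart from the fast-fibre list, these sums lie far below those of the muscle fibre markers, with 2253 to 9449 FPKM for the erythroid list. Their part in the members' values was not tested.

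Some members cannot be read alone. Ndufa10 and Ndufa10l1 share near-identical sequence, and Ndufa10l1 had no line in the files of SHAM replicate 1, DN replicate 2 and DN-SM replicate 1, taken here as 0, and 496 to 760.5 counts in the other libraries. Their sum was steady, at 290.8 to 417 CPM, with log2 fold changes of 0.16 in DN against SHAM (SE 0.10, adjusted p = 0.392), 0.09 in DN-SM against DN (adjusted p = 0.681) and 0.25 in DN-SM against SHAM (adjusted p = 0.337). Other small subunits have pseudogenes or retrocopies, and reads shared with them could be split in the same way. Ndufv3, a flavoprotein subunit of complex I that is known in a short and a long form, was looked at after its values were seen. The mean transcript length that the files list for it was 542 to 585 bases for SHAM, 607 to 645 for DN and 555 to 599.6 for DN-SM, so that DN lay above both other groups, while its total level was at 330.4 ± 42.9, 334 ± 17.55 and 283.5 ± 25.7 FPKM. This length is a mean weighted by the estimated share of each transcript, and it was not tested.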

How the data were processed

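Messenger RNA of 9 gastrocnemius libraries was sequenced on a BGISEQ-500 from 1 µg of total RNA each, per the labels' protocols. The deposited values are, per the file headers, expected counts (estimated reads per gene, not scaled for depth), and no line of a file holds a gene at 0. The authors' FPKM values divide these by transcript length and library size, per the file headers. HISAT2, RSEM, GATK and the rat build rn6 are named in the submitters' processing notes, and versions are not given in the sources used here. Symbols came from a RefSeq table: 13649 gene IDs matched directly and 7 by transcript accession, and 96 had none.

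Rounded expected counts entered the robust quasi-likelihood F test (two-sided) of edgeR 4.0.16 in R 4.3.3, with TMM factors. Genes were kept by filterByExpr (minimum count 10, minimum total 15). The 9 libraries entered 1 fit with group as its only term, and p-values were adjusted by Benjamini-Hochberg over all genes tested in a comparison, with a threshold of 0.05. Standard errors (SE) were derived from this fit, as the absolute log2 fold change over the square root of the F statistic. The 95% intervals are the estimate plus or minus this SE times a t quantile at the fit's total degrees of freedom. Values of log2 CPM used a prior count of 2. Isoform ratios were taken from FPKM and tested by two-sided exact permutation, and 1 pair that enters the adjustment is not reported here. The test was run on simulated counts with planted changes of 2-fold or more, larger than the estimates of any member. Smaller planted changes were not simulated.

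The members and the gene lists were chosen with earlier results of these data known, so no list was tested and lists are given as counts and medians. Named were members past the threshold, in each complex the member with the highest FPKM, the smallest p and the largest estimate, a set of best-known subunits, and other pathway genes past the threshold with Ppargc1a, Tfam, Cyc1 and Cycs. Alternatives were DESeq2 1.42.0 and its size factors, library sizes without the 20 most abundant genes, no filter, a fit without the robust option, limma 3.58.1 on log2 FPKM (pseudocount 1 or 0.1, keeping genes with an FPKM of 1 in 3 libraries or all genes), fits of 2 groups alone, a replicate block, each library left out, and an offset for transcript length (loess, span 0.5). The sum of Ndufa10 and Ndufa10l1, and fits of 2 groups without DN replicate 1, were added after the data were seen.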

Additional observations from a re-analysis of the deposited data

How the results depend on the processing

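The count of members higher in DN against SHAM, 2 by the edgeR fit of 9 libraries, was 1 with DESeq2 size factors, without the 20 most abundant genes or with no filter. It was 0 by limma on FPKM, in the fit of 2 groups alone, in that fit with DN replicate 1 left out and with the length offset. Leaving out each library gave 0 to 5, the 5 without SHAM replicate 3 (Cox6a1, Cox8a, Atp5mc3, Atp5po and Ndufb10). The count for DN-SM against DN, 0, was 3 by DESeq2, 2 in the fit of 2 groups alone, 3 in that fit with DN replicate 1 left out (4.86% of all genes called), and 0 to 2 with a library left out. Counts of lower members, and both counts in DN-SM against SHAM, were 0 under every alternative run. Whole-genome counts moved too: without SHAM replicate 3, 11.5% of all genes were called in DN against SHAM.

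Replicate numbers did not pair the libraries: same-numbered libraries of different groups had correlations of their deviations from -0.05 to 0.11 over 9 pairs, where over 0.1 in each was needed. With the replicate block 1 member was higher in DN against SHAM (Cox6a1, log2 fold change 0.56, adjusted p = 0.0375) and 0 in the other comparisons.

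Medians of members in DN-SM against DN were lower by limma on log2 FPKM: -0.116 over all, -0.115 to -0.116 in complex I, -0.019 in II, -0.081 in III, -0.168 to -0.169 in IV and -0.117 in V. The median of all genes moved with them, to -0.09 and -0.11 with a pseudocount of 1 and 0.1 and to -0.04 with no filter. With each library left out the complex III median ran from -0.071 to 0.053 and that of complex IV from -0.12 to -0.016. In DN-SM against SHAM complex III ran from 0.077 to 0.183. With the length offset complex III in DN against SHAM was at -0.010, and its mean level in DN was 0.040 on log2 CPM.

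Estimates near 0 changed sign, none of them called. With each library left out, those in DN against SHAM ran from -0.016 to 0.13 for Atp5f1a, -0.022 to 0.146 for Atp5if1, -0.13 to 0.097 for Ndufa4 and -0.244 to 0.013 for Sdhd. In DN-SM against DN they ran from -0.158 to 0.14 for Atp5if1, -0.086 to 0.019 for Cox6a2, -0.047 to 0.092 for Cox7a2, -0.166 to 0.012 for Sdhb and -0.096 to 0.002 for Uqcrfs1. In DN-SM against SHAM they ran from -0.094 to 0.052 for Atp5f1a, -0.092 to 0.206 for Atp5if1, -0.027 to 0.112 for Ndufb8, -0.006 to 0.13 for Sdhc and -0.092 to 0.023 for Uqcr10. Limma on FPKM gave 0.031 for Ndufa4 in DN against SHAM, and -0.084 to -0.086 for Atp5if1 and -0.060 for Cox7a2 in DN-SM against DN. The length offset gave -0.011 for Atp5if1 in DN against SHAM, 0.013 for Cox6a2 in DN-SM against DN and -0.008 for Uqcrfs1 in DN-SM against SHAM. Fits of 2 groups with DN replicate 1 left out gave 0.097 for Ndufa4 and 0.014 for Sdhd in DN against SHAM, and -0.053 for Atp5if1, -0.048 for Cox7a2 and 0.001 for Uqcrfs1 in DN-SM against DN. Differences of isoform ratios also ran across 0 with a library left out: -0.021 to 0.065 for Cox6a2/Cox6a1, -0.039 to 0.073 for Cox8b/Cox8a and -0.061 to 0.103 for Cox4i2/Cox4i1 in DN-SM against SHAM. The cause of these shifts was not tested. Which members depth limits was not tested.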
